A study of Phaffia rhodozyma with 6 samples.

Results

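The genes described here are those of the translation factors and aminoacyl-tRNA synthetases of the astaxanthin-producing yeast Phaffia rhodozyma. They were taken by their names alone: a gene was included when its name held tRNA synthetase, tRNA ligase, translation initiation factor, translation elongation factor, elongation factor 1, 2 or Tu, or peptide chain release factor, and held neither transcription nor ribosomal. This gave 74 of the 6363 genes in the authors' deposited table: 29 aminoacyl-tRNA synthetases, 30 genes named as initiation factors, 10 elongation factors, 4 release factors and 1 fungal tRNA ligase. The series compares the mutagenised strain BPAX-A1, with improved astaxanthin production, with the wild-type strain CBS6938, each grown as 3 fermenter cultures in defined medium on sucrose at pH 5.5, 20 °C and 70% dissolved oxygen and taken late in exponential growth. Which mutations BPAX-A1 carries is not stated in any source used here.

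The authors' deposited table gives each gene 1 FPKM value (sequenced fragments scaled by transcript length and by library depth) in each of its conditions, which it names q1 and q2. The header names no unit, and the values are read as FPKM because Cuffdiff writes that unit. No source used here says which of them is the mutant, so all comparisons are of q2 with q1 and neither is given a strain. Cuffdiff estimated each value over the libraries of a condition, so the spread between cultures, the depth of each library and the counts behind a gene are unknown. FPKM values, log2 fold changes (q2 over q1), p-values and q-values of genes below are all those of the authors' deposited table. The implied standard error (SE) was obtained from each two-sided p-value as the size of the log2 fold change over the matching normal quantile, so it restates Cuffdiff's test and is not a spread between cultures. A gene was called at a q-value below 0.05.

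Each aminoacyl-tRNA synthetase joins an amino acid to its matching tRNA. Initiation factors bring the initiator tRNA, the mRNA and the ribosomal subunits together, elongation factors deliver the charged tRNAs and move the ribosome along, and release factors free the finished protein at a stop codon. Yeasts translate in the cytosol and, with a separate set of factors of bacterial type, in the mitochondrion, and some synthetases have a gene for each compartment.

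Cuffdiff called 0 of the 71 members that it tested, against 5.53% of all 6272 tested genes (3.65% with a higher value in q2, 1.88% with a lower one). The unadjusted p was below 0.05 for 3 members (4.23%), against 14.6% of all tested genes. By direction, 3 of the 71 members (4.23%) had such a p with a higher value in q2, against 10.5% of all tested genes. With a lower value there were 0 of the 71, against 4.13%. The 3 members were a mitochondrial polypeptide chain release factor, a seryl-tRNA synthetase and a tryptophanyl-tRNA synthetase. The smallest q-value of the members in the authors' deposited table was 0.0673. The median log2 fold change of the tested members was 0.13, and that of all tested genes was 0.12. The quartiles were -0.26 and 0.67 for the members and -0.28 and 0.70 for all tested genes. In q2, 42 of the 71 members (59.2%) had the higher value, against 57.7% of all tested genes. A log2 fold change above 1 was found for 10 members (14.1%), against 17.9% of tested genes, and one below -1 for 1 member, against 5.13% of tested genes.

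**Figure D1:**
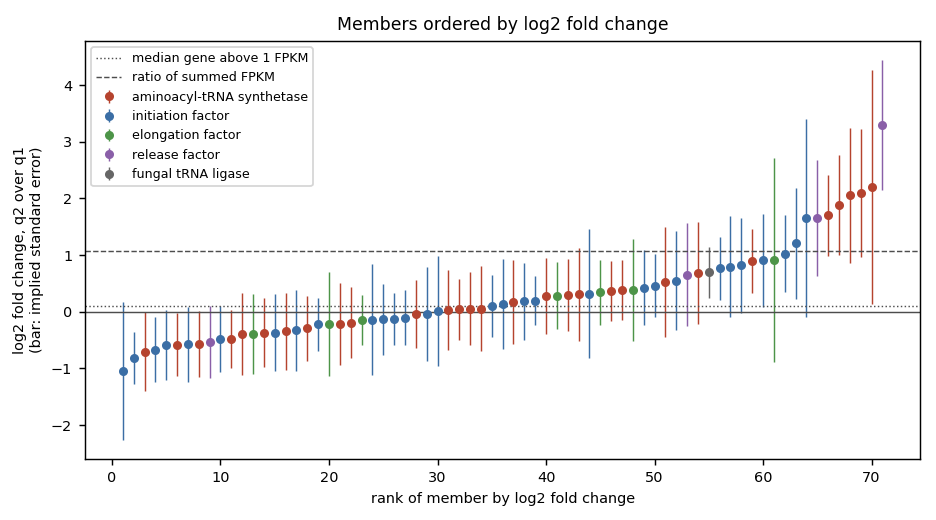
Log2 fold change (q2 over q1) of the 71 tested members in the authors' deposited table, ordered by size and coloured by role, with the implied SE as a bar. Most members lie between -1 and 1, with a tail of 10 members above 1 that ends at 3.30; the dotted line is the median gene above 1 FPKM (0.11) and the dashed line the log2 ratio of the summed FPKM of q2 and q1 (1.07).

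The levels and implied SEs of the members are set here beside those of all tested genes. Their median was 128 FPKM in q2 and 112 in q1, at the percentiles 78.8 and 79.8 of all genes, against medians of 46.2 in q2 and 39.1 in q1 over all tested genes. The median implied SE was 0.68 for the members and 0.51 for all tested genes. The implied SE was larger for the members with higher levels (Spearman's rho 0.58 across 71 genes, which share the same libraries). The same direction held over all tested genes above 0 in both conditions (rho 0.39). With the p-value of 0.0027 that the q threshold required, the median member needed a log2 fold change of 2.03 to be called. The approximate 95% interval lay between -2 and 2 for 47 of the 71 members, against 4436 of all 6272 tested genes. It lay between -1 and 1 for 0 of the members, against 583 of the 6272. The smallest log2 size that Cuffdiff called for any gene of the table was 1.32.

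The signs of many members also depend on the scaling. Summed over all genes, FPKM came to 2161506 in q2 and 1030219 in q1, and the log2 ratio of 1.07 shifts all genes when both conditions are rescaled to one total (TPM, transcripts scaled to a common sum). On the TPM scale 9 of the 71 members were higher in q2, against 1048 of all 6272 tested genes. The member median was -0.93 beside -0.95 for all tested genes. Rescaled over the genes other than cytosolic ribosomal proteins, 23 members were higher, against 2214 of the 6272. The median was then -0.27 beside -0.29. Relative to the median gene above 1 FPKM (0.11), 36 members were higher, against 3150 of the 6272, and the member median was 0.02. The 74 members, of which 3 elongation factor 1a genes were not tested and are listed at 0, held 0.967% of the FPKM sum in q2 and 1.58% in q1. Without the cytosolic ribosomal proteins in the sum, the shares were 2.53% in q2 and 2.61% in q1.

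The 29 synthetase genes covered all 20 amino acids, 12 of them with 1 gene and 8 with several. In the authors' deposited table their values ran from 48.6 to 314 FPKM in q2 and from 27.4 to 240 in q1, with medians of 109 in q2 and 102 in q1. Of the 29, 18 (62.1%) had higher values in q2, against 57.7% of all tested genes. On the TPM scale 5 did, against 1048 of 6272 tested genes. The median log2 fold change was 0.06. Cuffdiff called 0, against 5.53% of all tested genes. The 2 with an unadjusted p below 0.05 (6.90%, against 14.6% of all tested genes) had higher values in q2.

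**Figure D2:**
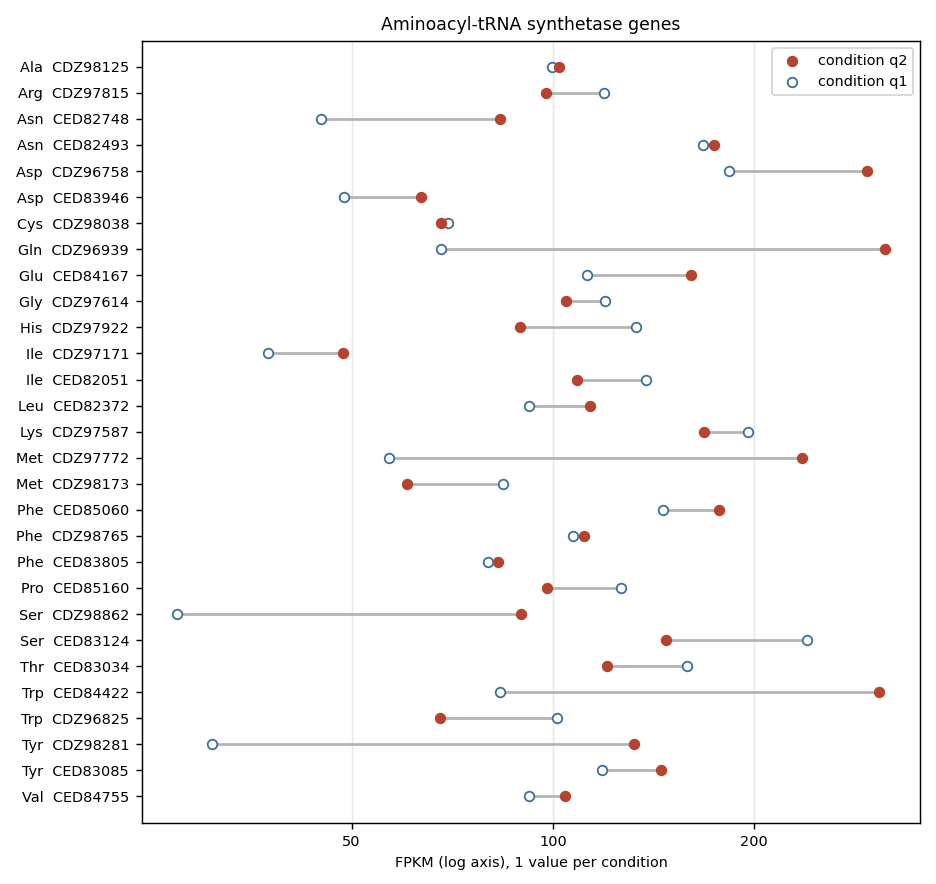
FPKM of the 29 aminoacyl-tRNA synthetase genes on a log axis, with q2 filled and q1 open, 1 value per condition, grouped by amino acid. The widest gaps are those of the glutaminyl, tyrosyl, methionyl, tryptophanyl and seryl genes CDZ96939, CDZ98281, CDZ97772, CED84422 and CDZ98862, all higher in q2.

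For the 12 amino acids with 1 synthetase gene, the median log2 fold change was -0.11 and 7 of the 12 genes had lower values in q2. The exception in size was glutaminyl-tRNA synthetase (CDZ96939, scaffold 79, 796182 to 799677), with 314 FPKM in q2 and 68.0 in q1. The log2 fold change of 2.21 had an implied SE of 2.06, the largest of any member (q 0.694). The other 11 ran from -0.57 to 0.52, with glutamate-tRNA ligase (CED84167) at the top. Histidyl-tRNA synthetase (CDZ97922) had the lowest of these log2 fold changes, -0.57 (89.4 FPKM in q2 and 133 in q1, implied SE 0.58). Threonyl-tRNA synthetase (CED83034) had 121 FPKM in q2 and 158 in q1, a log2 fold change of -0.39. Lysine-tRNA ligase (CDZ97587) had 168 FPKM in q2 and 196 in q1 (log2 -0.22), and alanine-tRNA ligase (CDZ98125) 102 in q2 and 99.7 in q1 (log2 0.03).

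Some amino acids had more than 1 synthetase gene, and the log2 fold changes of these genes could be set side by side. Phenylalanine had 3 genes and 7 amino acids had 2. In 4 of the 7 pairs the log2 fold changes of the partners lay more than 1 apart, and the median gap was 1.80. No replicate values exist to test these gaps, and scaling cannot alter them, since it shifts both partners alike. The combined implied SE given below takes the errors of the partners as independent, though both come from the same libraries. It describes a gap and does not test it. The partner with the higher log2 fold change was the less abundant of its pair in q1 in 6 of 7 pairs, which the choice by a ratio over q1 itself favours. Its locus was the shorter in 5 of 7. Apart from the asparagine pair, the names do not say in which compartment a partner works.

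In the serine pair the partners had opposite signs. Seryl-tRNA synthetase CDZ98862 (scaffold 262, 1641271 to 1643059) had 89.5 FPKM in q2 and 27.4 in q1, a log2 fold change of 1.71 (implied SE 0.71, p 0.0168, q 0.169). The other seryl-tRNA synthetase, CED83124 (scaffold 52, 1364568 to 1367392), had 147 FPKM in q2 and 240 in q1, a log2 fold change of -0.70 (implied SE 0.70), the lowest of the synthetases. The partners' gap was 2.41 on the log2 scale with a combined implied SE of 1.0. CDZ98862 made up 37.8% of the pair's FPKM in q2 and 10.3% in q1.

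For tryptophan and methionine the more abundant partner was a different gene in q2 than in q1. Tryptophanyl-tRNA synthetase CED84422 (scaffold 78, 206100 to 207963) had 307 FPKM in q2 and 83.4 in q1 in the authors' deposited table, a log2 fold change of 1.88 (implied SE 0.88, p 0.0317, q 0.260). Its partner CDZ96825 had 67.9 FPKM in q2 and 102 in q1 (log2 -0.58, implied SE 0.55). The gap was 2.46 with a combined implied SE of 1.04. CED84422 held 81.9% of the pair's FPKM in q2 and 45.1% in q1. Methionine-tRNA ligase CDZ97772 had 236 FPKM in q2 and 56.8 in q1 (log2 2.06, implied SE 1.19, q 0.438), and methionyl-tRNA synthetase CDZ98173 had 60.6 in q2 and 84.3 in q1 (log2 -0.48). The gap was 2.53 with a combined implied SE of 1.30. The share of CDZ97772 was 79.6% in q2 and 40.3% in q1.

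In the tyrosine pair, CDZ98281 had 132 FPKM in q2 and 30.9 in q1 (log2 2.10, implied SE 1.14, q 0.389), and CED83085 had 145 in q2 and 118 in q1 (log2 0.29). Their gap was 1.80 with a combined implied SE of 1.30. The asparagine pair holds the synthetase that is named mitochondrial, CED82748, with 83.3 FPKM in q2 and 45.0 in q1 (log2 0.89, implied SE 0.56). The other asparaginyl-tRNA synthetase, CED82493, had 174 in q2 and 168 in q1 (log2 0.06), so the gap of 0.83 was smaller than its combined implied SE of 0.93. The isoleucine pair differed by 0.72 and the aspartate pair by 0.30, both less than their combined implied SEs of 0.85 and 1.04. Aspartate-tRNA ligase CDZ96758, among the most abundant synthetases, had 294 FPKM in q2 and 183 in q1 (log2 0.68). The 3 phenylalanine genes lay within 0.23 of each other. Among them, CDZ98765 is named subunit beta, so the 3 genes need not encode separate enzymes.

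**Figure D3:**
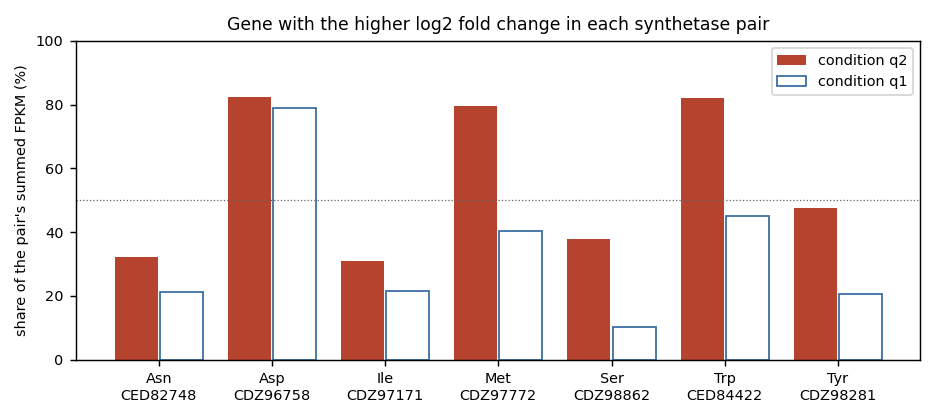
Share of the pair's summed FPKM, in percent, held by the gene with the higher log2 fold change in each of the 7 amino acids with 2 synthetase genes, in q2 (filled) and q1 (open). The share is larger in q2 in all 7 because the gene was chosen for that; it crosses 50% (dotted) for methionine and tryptophan.

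Among the 30 genes named as initiation factors, Cuffdiff called 0, against 5.53% of all tested genes. An unadjusted p below 0.05 was found for 0, against 14.6%. Their median log2 fold change was 0.06, and 16 of 30 (53.3%) had higher values in q2, against 57.7% of all tested genes. On the TPM scale 2 of 30 did, against 1048 of 6272 tested genes. The smallest p-value was 0.0722, for the cap-binding subunit eIF-4E (CDZ97368), which recognises the 5′ cap of mRNA. It had 61.1 FPKM in q2 and 108 in q1 in the authors' deposited table (log2 -0.82, implied SE 0.46). The bridging subunit eIF-4G (CDZ96524), which links cap and ribosome, had 90.0 FPKM in q2 and 89.2 in q1 (log2 0.01).

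The subunits of eIF2, which carries the initiator tRNA, had log2 fold changes of both signs, all within their implied SE. The beta subunit (CDZ97412) had 546 FPKM in q2 and 314 in q1 (log2 0.80, implied SE 0.88). The alpha subunit (CED83181), whose phosphorylation is the classical brake on initiation, had 363 in q2 and 371 in q1 (log2 -0.03). The gamma subunit (CED85296) had 128 in q2 and 193 in q1 (log2 -0.59, implied SE 0.62). Levels of the 3 thus spread over 4.25-fold in q2 and 1.92-fold in q1. The nucleotide exchange factor of eIF2 is eIF2B. Its genes had levels of 43.6 to 104 FPKM in q2 and 46.4 to 112 in q1. The log2 fold change was 0.77 for the beta subunit (CED85335, implied SE 0.56), 0.46 for epsilon (CED82551), -0.13 for delta (CED85441) and -0.22 for gamma (CED85578). It was -0.10 for the gene named only factor 2b (CDZ97061).

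By name, 10 genes were grouped under the scaffold factor eIF3, which prepares the small subunit for the mRNA. They include a gene named only as related to eIF-3a (CED82824). Of the 10 genes, 6 had higher and 4 had lower values in q2. Their log2 fold changes ran from -0.58 to 1.21 with a median of 0.16. In the authors' deposited table eIF-3b (CED84302) stood highest, with 467 FPKM in q2 and 202 in q1 (implied SE 0.97, q 0.632). Subunit 7 (CDZ98729) had 444 in q2 and 252 in q1 (log2 0.82), and the RNA-binding subunit (CDZ97550) had 606 in q2 and 414 in q1 (log2 0.55). A pair of genes share the name subunit 6. CED85186 had 149 FPKM in q2 and 223 in q1 (log2 -0.58), and CDZ97426 had 236 in q2 and 215 in q1 (log2 0.13). Subunit 8 (CDZ98494) and a gene named eif3 subunit (CED82211) had log2 fold changes of 0.32 and 0.19. Those of eIF-3h (CED84402), of the gene named probable eif-3 (CED83072) and of the one related to eIF-3a (CED82824) were -0.37, -0.33 and -0.48. On the TPM scale, of these 10 genes eIF-3b was higher in q2, at 0.14, and the other 9 were lower. Of all 6272 tested genes, 1048 were higher on that scale.

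Of the factors for start-site choice and subunit joining, eIF1A (CED85181, scaffold 249, 773765 to 775134) had the highest value of any tested member in q2. It had 3193 FPKM in q2 and 1015 in q1, a log2 fold change of 1.65, but with an implied SE of 1.75 (q 0.747). Its partner in scanning, eIF-1/SUI1 (CED84275), had the opposite sign, with 489 FPKM in q2 and 776 in q1 (log2 -0.67, implied SE 0.58). The density-regulated protein related to eIF-1 (CED83051) had 283 in q2 and 151 in q1 (log2 0.91, implied SE 0.82). The translation initiation factor if-2 (CED82828), which bears the bacterial-type name, had 58.6 in q2 and 28.9 in q1. Its log2 fold change of 1.02 became -0.05 on the TPM scale. eIF-5 (CED85358), eIF5B (CDZ98039) and eIF6 (CED85059) had log2 fold changes of 0.43, -0.13 and 0.10.

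The most abundant tested member in q1 was an eIF5A gene, named 5a-2 (CED82418), whose product helps the ribosome through difficult peptide bonds. It had 2518 FPKM in q2 and 2768 in q1 in the authors' deposited table (log2 -0.14, implied SE 0.97). Another gene named eIF-5A (CED82421) lies close by on scaffold 33, from 1329722 to 1330427. It was the least abundant tested member, with 1.51 FPKM in q2 and 3.09 in q1, and had the lowest log2 fold change, -1.04 (implied SE 1.22, q 0.782). The gene named eIF-2C (CED83654), a name also used for Argonaute proteins of RNA silencing, had 12.7 FPKM in q2 and 11.1 in q1 (log2 0.20). The fungal tRNA ligase (CDZ97591), of a kind that joins the exons of spliced tRNAs in other fungi and charges none, had 26.8 in q2 and 16.5 in q1 (log2 0.70, implied SE 0.46).

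**Figure D4:**
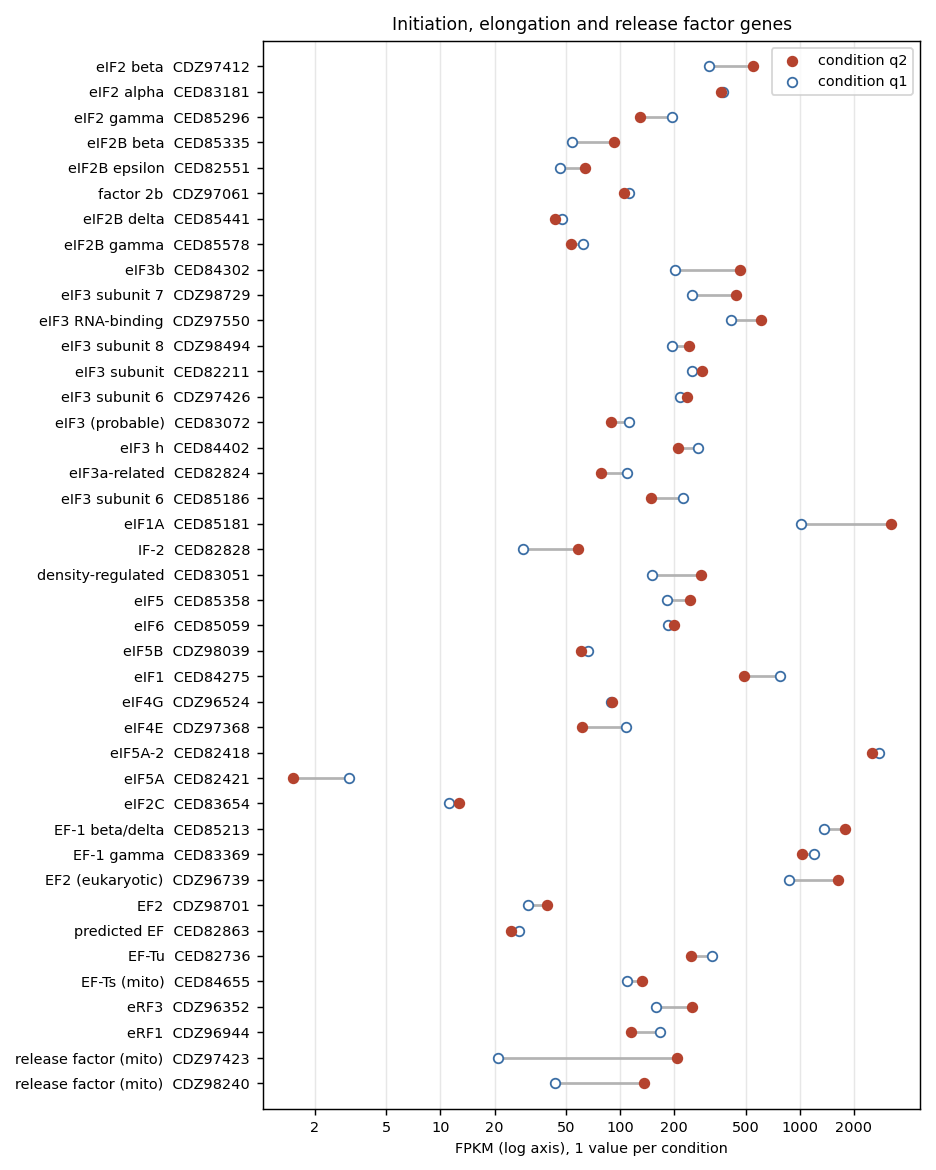
FPKM of the 41 tested initiation, elongation and release factor genes on a log axis, with q2 filled and q1 open, 1 value per condition, grouped by role and complex. Levels span from 1.51 FPKM for eIF-5A CED82421 to 3193 for eIF1A, both in q2, and the widest gap is that of the mitochondrial release factor CDZ97423.

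Among the elongation factors, 7 of 10 genes were tested, and Cuffdiff called 0 of them, against 5.53% of all tested genes. The unadjusted p was below 0.05 for 0, against 14.6% of all tested genes. Their log2 fold changes ran from -0.39 to 0.91, the narrowest range of the 4 roles. Elongation factor 2 (CDZ96739), which moves the ribosome by a codon, had 1635 FPKM in q2 and 870 in q1 in the authors' deposited table (log2 0.91, implied SE 1.80). Another gene named elongation factor 2 (CDZ98701) had 38.9 in q2 and 30.7 in q1 (log2 0.34). The exchange factor subunits of elongation factor 1 had 1789 FPKM in q2 and 1368 in q1 for the beta/delta chain (CED85213, log2 0.39) and 1023 in q2 and 1191 in q1 for EF-1 gamma (CED83369, log2 -0.22). Elongation factor Tu (CED82736) had 247 in q2 and 324 in q1 (log2 -0.39), and mitochondrial EF-Ts (CED84655), which recycles it, 132 in q2 and 109 in q1 (log2 0.28). A predicted elongation factor (CED82863) had 24.7 in q2 and 27.3 in q1 (log2 -0.14). On the TPM scale, 0 of the 7 were higher in q2, against 1048 of 6272 tested genes.

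The protein that delivers charged tRNAs to the cytosolic ribosome, elongation factor 1a, could not be compared. Its 3 genes (CDZ96487 and CDZ96489 on scaffold 54, CDZ97596 at 5 to 1649 on scaffold 143) are listed at 0 in both conditions with the status HIDATA, which Cuffdiff gives to loci with too many fragments. These 3 are also the 3 genes of the whole table with that status. A listed 0 is therefore no level here, and the members' sums and shares leave out their elongation factor 1a. The FPKM sums over all genes, and the TPM scale that rests on them, leave it out too. CDZ96489 and CDZ97596 have spans of equal length, 1645 bases, and reads of such genes may not be separable.

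Release factors held the largest log2 fold change of the members. The mitochondrial polypeptide chain release factor CDZ97423 (scaffold 79, 2235981 to 2237243) had 207 FPKM in q2 and 21.0 in q1 in the authors' deposited table, 9.82-fold higher in q2. The log2 fold change of 3.30 had an implied SE of 1.15 (p 0.00425, q 0.0673) and an approximate 95% interval with bounds of 1.04 and 5.55. It ranked at the percentile 87.0 of all genes in q2 and 28.8 in q1. The other gene of that name, CDZ98240 (scaffold 242, 385505 to 387084), had 136 FPKM in q2 and 43.2 in q1 (log2 1.66, implied SE 1.02, q 0.475). Of the 2 not named mitochondrial, release factor 3 (CDZ96352), the GTPase of termination, had 250 in q2 and 159 in q1 (log2 0.66, implied SE 0.91). Subunit 1 (CDZ96944), the kind that reads the stop codon, had 115 in q2 and 166 in q1 (log2 -0.53, implied SE 0.63).

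The 4 members named mitochondrial, which are both release factors just given, asparaginyl-tRNA synthetase and EF-Ts, all had higher values in q2, with a median log2 fold change of 1.27. On the TPM scale, 2 of the 4 were higher. The rule's words missed a further pair of genes with mitochondrial in their names: a mitochondrial elongation factor (CED85247), at 31.0 FPKM in q2 and 30.2 in q1 (log2 0.04), and another (CDZ96970), at 61.2 in q2 and 83.9 in q1 (log2 -0.45). The higher values were thus not shared by all mitochondrial factors of the table. Adding the factors of bacterial-type name, IF-2 and EF-Tu, gave 5 of 6 higher and a median of 0.96, and EF-Tu was the exception. Cuffdiff called 0 of the 6, with 1 at an unadjusted p below 0.05, against 5.53% and 14.6% of all tested genes. Without the members named mitochondrial, the member median was 0.06.

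By position, the members lay on 15 scaffolds, and 2 pairs of members were direct neighbours: cysteinyl-tRNA synthetase (CDZ98038) beside eIF5B (CDZ98039), and eIF6 (CED85059) beside phenylalanine-tRNA ligase (CED85060). No member overlapped its neighbours, and the closest lay 38 bases away. The 10 members with a log2 fold change above 1 had 20 tested neighbours with a median log2 fold change of -0.03, and 4 of the 20 were above 1. For the other 61 members, 26 of 122 neighbours were above 1. Of all tested genes, 17.9% were. Of the 4 such neighbours of the 10 members, the nearest lay 97 bases from methionine-tRNA ligase CDZ97772. It was the SUMO-activating subunit UBA2 (CDZ97771), with 195 FPKM in q2 and 48.2 in q1 (log2 2.02). Whether reads of such neighbours were shared was not tested.

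Other genes of protein synthesis were read from 6 lists made from gene names. Cytosolic ribosomal proteins had a median log2 fold change of 1.34 over 96 tested genes, with 0 called and 4 higher at an unadjusted p below 0.05, against 0.13 for the translation factors and synthetases. On the TPM scale the median of the ribosomal list was 0.27 and that of the members -0.93. The 30 mitochondrial ribosomal proteins had a median of 0.60 (0 called, 1 higher by unadjusted p), the 21 tRNA modification genes 0.44 (0 called, 2 higher) and the 11 tRNA processing genes 0.94 (0 called, 2 higher). These 3 medians were -0.46, -0.63 and -0.13 on the TPM scale. The 57 enzymes of amino acid synthesis, whose products the synthetases use, had a median of -0.30, with 43 of 57 lower in q2, against 2650 of 6272 tested genes. Their median on the TPM scale was -1.37, against -0.95 for all tested genes, and 1 of 57 was higher. Cuffdiff called 0 of them, with 1 higher, an asparagine synthase (CED83843, 78.9 FPKM in q2 and 15.7 in q1), and 1 lower, an acetylornithine aminotransferase (CED84851, 40.1 in q2 and 78.2 in q1), by unadjusted p.

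Factor assembly and regulation outside the rule gave the 1 called gene of these lists. That was 5.26% of its 19 tested genes, near the 5.53% called of all tested genes. The called gene (CED82118) bears the name putative translation initiation inhibitor UK114/IBM1. It was listed by that name alone, and whether its product acts in translation was not tested. It had 110 FPKM in q2 and 27.6 in q1 in the authors' deposited table (log2 1.99, implied SE 0.59, q 0.0210). Another gene of that name (CED83186) had 36.6 FPKM in q2 and 19.8 in q1 (log2 0.89, q 0.285). The list of 19 had a median of -0.13, and 6 of 19 had higher values in q2. Its median on the TPM scale was -1.20, with 2 of 19 higher. Elongation factor 3 (CDZ97113), a fungal factor that the rule's words miss, had 554 FPKM in q2 and 620 in q1 (log2 -0.16, implied SE 1.35). None of these lists was tested as a set, and their genes were read with the same p-values as the members.

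**Figure D5:**
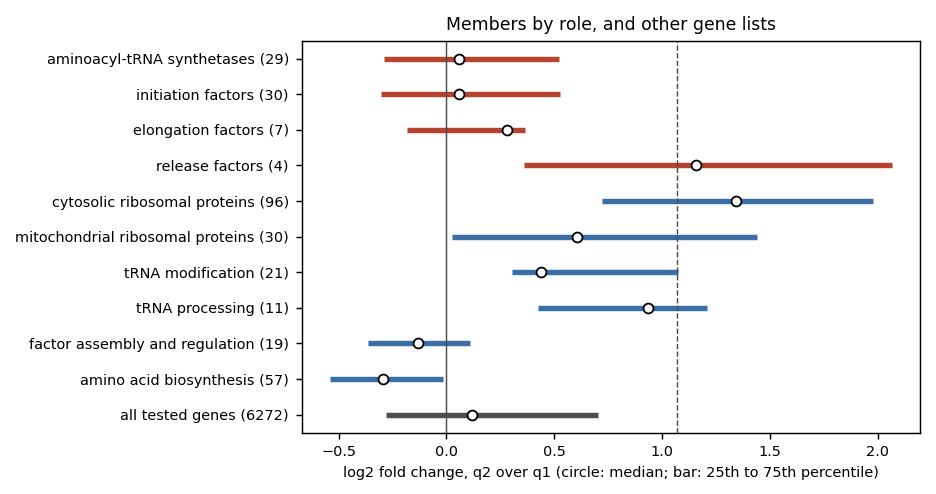
Median (circle) and 25th to 75th percentile (bar) of the log2 fold change, q2 over q1, for the members by role (first 4), for 6 other gene lists and for all tested genes, with the number of tested genes in brackets. Synthetase and initiation factor medians (0.06 each) lie near that of all tested genes (0.12), release factors (1.16, 4 genes) and cytosolic ribosomal proteins (1.34) lie above; the dashed line is the log2 ratio of summed FPKM (1.07).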

How the data were processed

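RNA of 3 cultures of BPAX-A1 and 3 of CBS6938 was made into stranded mRNA libraries, per the labels' protocols. Reads went through Cuffdiff, with Trimmomatic, FastQC, TopHat and Cufflinks also named, per the submitters' processing notes. Versions, build and annotation: not given in the sources used here. Per the file headers, the authors' deposited table holds 1 value per condition with no unit named, read here as the FPKM that Cuffdiff writes, their log2 ratio (q2 over q1), p-values, q-values and the test statistic, a score that was not used for calls. Other sheets repeat it or a selection and were not used. The table holds 0 columns of single samples, so 1 value per condition was compared and depth per sample is unknown.

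Recomputed log2 ratios and Benjamini-Hochberg q-values lay within 1.4e-05 and 5.3e-07 of the authors' deposited columns. Starts count from 0 (among genes under 600 bases, 254 spans were multiples of 3, with 105 and 99 at the other remainders), and 1 was added. Counts and medians cover tested genes. Python 3.11.15, numpy 2.4.6, pandas 2.3.3, scipy 1.17.1 and matplotlib 3.10.9 were used. The genes named were, per role (initiation factors by complex, synthetases split by the word mitochondrial), those called or at an unadjusted p below 0.05, the 5 highest and 5 lowest log2 fold changes, the 4 highest FPKM in either condition, and all of a role with at most 12 genes. Others were named to complete a pair of synthetases or a position. These, and the glutamate-tRNA and alanine-tRNA ligases (CED84167 and CDZ98125), were chosen after their values were seen. The members and lists were chosen with earlier results of these data known.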

Additional observations from a re-analysis of the deposited data

How the results depend on the processing

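No paired analysis was possible because the table holds no values of single cultures, and for the same reason no culture could be left out. The count of 0 called members by Cuffdiff was the same at q below 0.01, with a minimum log2 size of 1, above a mean of 1 FPKM, with every text column searched and with wider words (chosen after seeing the data), and was 3 at an unadjusted p below 0.05. The member median of 0.13 was 0.13 with a pseudocount of 1 FPKM and with every text column searched. It was 0.11 with a pseudocount of 10 FPKM, 0.023 when centred on the median gene, 0.16 above 10 FPKM, and reversed to -0.93 on the TPM scale and to -0.27 when rescaled without cytosolic ribosomal proteins, as a fixed shift of all genes must do. Chosen after seeing the data, it was 0.056 with wider words, 0.10 without eIF-2C and the fungal tRNA ligase, and 0.056 without the members named mitochondrial. The members' share of FPKM was 0.967% in q2 and 1.58% in q1, and 2.53% in q2 and 2.61% in q1 without cytosolic ribosomal proteins, by the smaller sum. At an unadjusted p below 0.05 the other lists had 4 (cytosolic ribosomal, 0 called), 1 (mitochondrial ribosomal, 0 called), 2 (tRNA modification, 0 called), 2 (tRNA processing, 0 called), 2 (amino acid synthesis, 0 called) and 2 genes (assembly and regulation, 1 called). Of all tested genes, 14.6% had such a p and 5.53% were called. Depth per library is unknown, and the implied SE limits single genes.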
